A study of Mus musculus with 6 samples.

Results

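The genes described here encode the MHC class I molecules of the mouse and the machinery that supplies them with peptides. They were taken by symbol: the classical heavy chains H2-K1 and H2-D1, the nonclassical heavy chains H2-T3 and H2-T23, the light chain B2m, the peptide transporter subunits Tap1 and Tap2, the immunoproteasome subunits Psmb8 and Psmb9, and the transactivator Nlrc5. All 10 were found among the 24346 gene entries of each library. The libraries were made from colonic epithelial cells, separated into distal, middle and proximal colon, of wild-type C57BL/6J mice that were left untreated. Each region was represented by 1 female and 1 male library, so n = 2 per region and 6 libraries in all. Neither the age of the mice, nor how many contributed to a library, nor whether 1 animal gave several regions is given in the sources used here. The p-values therefore measure the spread among these 6 libraries alone, and that spread may be technical.

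Class I molecules sit on nearly all nucleated cells and display peptides from inside the cell to T cells. Proteasomes cut proteins into peptides, the TAP transporter carries these into the endoplasmic reticulum, and there they are loaded onto a heavy chain paired with beta-2 microglobulin. Interferons and the transactivator NLRC5 raise the transcription of most of these genes. In the intestine the product of H2-T3, known as the thymus leukaemia (TL) antigen, binds the CD8 alpha homodimer carried by many intraepithelial lymphocytes, and the product of H2-T23, known as Qa-1, is a ligand of the CD94 and NKG2 receptors.

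Expression was given as FPKM, fragments scaled to transcript length and to the size of the library, so that levels can be compared between genes per unit of length. Total FPKM was 546269 to 612818 per library, and a depth of about 7.86 to 9.92 M fragments per library was estimated from the steps between low values. The epithelial markers Epcam and Krt8 reached 743 to 873 FPKM and 3318 to 4008 FPKM, and all 12 listed epithelial markers were tested. Between distal and proximal colon limma called 1 of the 12, the transcription factor gene Cdx2, which was lower. Other markers that did not pass also differed in level: Krt20 was at 247 and 388 FPKM in the female and male distal libraries against 851 and 694 FPKM in the proximal ones (adjusted p = 0.062 by limma), Tspan8 at 399.5 and 397 against 541 and 489 FPKM, and Lgals4 at 4333 and 3944 against 3283 and 2913 FPKM. Lists for B cells and plasma cells, neutrophils, and neurons and glia held no gene above 1 FPKM in 2 libraries. Of the 10 listed B cell and plasma cell genes only 7 had an entry, and the immunoglobulin genes Ighm, Igkc and Igha had none. Transcripts of T cells and intraepithelial lymphocytes were present in all regions and are given beside the results they moved with.

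Of the 10 genes, 8 lie on chromosome 17 between 33996017 and 36190287 (mm10), the mouse MHC. Psmb9, Tap1, Psmb8 and Tap2 are neighbours there, between 34181987 and 34216321. B2m is on chromosome 2, 122147686 to 122153083, and Nlrc5 on chromosome 8, 94434356 to 94527272. The sequences upstream of the RefSeq start sites are shown because the heavy chains differ in which elements known from class I promoters they hold. RefSeq promoters (GRCm38.p6) matched 8 of the 10 symbols, and 250 bases before the start site were searched. Each line runs 5′ to 3′ towards the gene, the last one covering the 225 bases between the start sites of Psmb9 and Tap1 and running towards Tap1. Capitals mark 4 elements, searched on both strands: the kappa B site of enhancer A (a palindrome of 11 letters with its middle base free), the core bound by interferon regulatory factors (AANNGAAA), the core of the X2 box (TGACG) and the CCAAT box (CCAAT).
H2-K1, chr17:34000348-34000597, minus strand: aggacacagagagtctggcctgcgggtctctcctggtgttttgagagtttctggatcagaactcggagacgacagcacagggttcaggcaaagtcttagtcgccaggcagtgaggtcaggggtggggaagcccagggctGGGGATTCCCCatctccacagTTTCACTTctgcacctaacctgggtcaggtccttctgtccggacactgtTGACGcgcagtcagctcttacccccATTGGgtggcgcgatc
H2-D1, chr17:35262844-35263093, plus strand: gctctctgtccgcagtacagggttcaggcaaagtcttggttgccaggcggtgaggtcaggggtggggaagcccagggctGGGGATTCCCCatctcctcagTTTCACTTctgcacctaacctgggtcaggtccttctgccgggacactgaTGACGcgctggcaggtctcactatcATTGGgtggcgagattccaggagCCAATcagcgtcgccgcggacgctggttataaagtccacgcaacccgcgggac
H2-T3, chr17:36190152-36190401, minus strand: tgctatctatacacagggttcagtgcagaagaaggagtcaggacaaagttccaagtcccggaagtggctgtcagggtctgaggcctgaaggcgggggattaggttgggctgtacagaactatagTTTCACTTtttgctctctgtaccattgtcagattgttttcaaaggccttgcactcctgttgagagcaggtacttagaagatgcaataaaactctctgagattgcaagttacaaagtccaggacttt
H2-T23, chr17:36032702-36032951, minus strand: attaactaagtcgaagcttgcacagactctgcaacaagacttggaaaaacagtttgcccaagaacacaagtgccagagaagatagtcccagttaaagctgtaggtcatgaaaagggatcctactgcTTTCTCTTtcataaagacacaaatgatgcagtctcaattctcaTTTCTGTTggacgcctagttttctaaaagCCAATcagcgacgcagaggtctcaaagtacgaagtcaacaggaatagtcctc
B2m, chr2:122147437-122147686, plus strand: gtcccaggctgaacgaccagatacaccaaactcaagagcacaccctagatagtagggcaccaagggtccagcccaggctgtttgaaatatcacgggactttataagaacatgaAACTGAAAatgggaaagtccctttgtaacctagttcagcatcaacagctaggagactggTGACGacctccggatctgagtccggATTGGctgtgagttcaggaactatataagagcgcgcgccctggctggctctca
between Psmb9 and Tap1, chr17:34187331-34187555, plus strand: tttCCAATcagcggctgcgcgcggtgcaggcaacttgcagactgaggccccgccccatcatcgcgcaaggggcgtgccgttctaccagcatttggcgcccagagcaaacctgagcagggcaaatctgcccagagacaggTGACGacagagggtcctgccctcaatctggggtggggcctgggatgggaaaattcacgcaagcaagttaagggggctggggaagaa
The kappa B letters were found upstream of H2-K1 (bases -111 to -101) and H2-D1 (bases -171 to -161), and in 0.05% of all 32851 promoter windows of this length. For H2-K1, 2 start sites were listed and the first was used, so positions given for it depend on that choice. The interferon regulatory factor core was found upstream of 5 of the 8 members (H2-K1, H2-D1, H2-T3, H2-T23 and B2m), against 21.31% of all windows. TGACG was found for H2-K1, H2-D1, B2m, Tap1 and Psmb9 (17.77% of all windows), and CCAAT for these and H2-T23 (33.85%). The windows of Tap1 and Psmb9 overlap, so their hits are partly the same letters. The window of H2-T3 held the interferon regulatory factor core at bases -126 to -119 and none of the other 3 sets of letters. H2-K1 and H2-D1 shared an unbroken run of 47 bases, and H2-T3 shared at most 12 bases in a row with H2-K1 and 11 with H2-D1. The 4 elements were kept from a wider set of letter patterns tried on these same promoters, and the interferon regulatory factor core is a looser form taken after a stricter one had been searched. The matches therefore only describe the letters, overlapping hits included, and say nothing of binding.

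The members fell into groups of very different level. H2-K1 averaged 425 FPKM over the 6 libraries, B2m 409, H2-D1 349, H2-T23 147, H2-T3 23.98, Psmb9 15.5, Psmb8 14.5, Tap2 13.2, Tap1 7.70 and Nlrc5 0.405 FPKM. The ranges of H2-K1, B2m and H2-D1 overlapped, as did those of H2-T3, Psmb9, Psmb8 and Tap2, each with its neighbour. H2-D1 lay above H2-T23, H2-T23 above H2-T3, Tap2 above Tap1 and Tap1 above Nlrc5 in 6 of 6 libraries, without overlap. In every library B2m ranked between 177 and 330 of the 24346 entries, whereas H2-T3 ranked anywhere from 1229 to 12520.

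**Figure D1:**
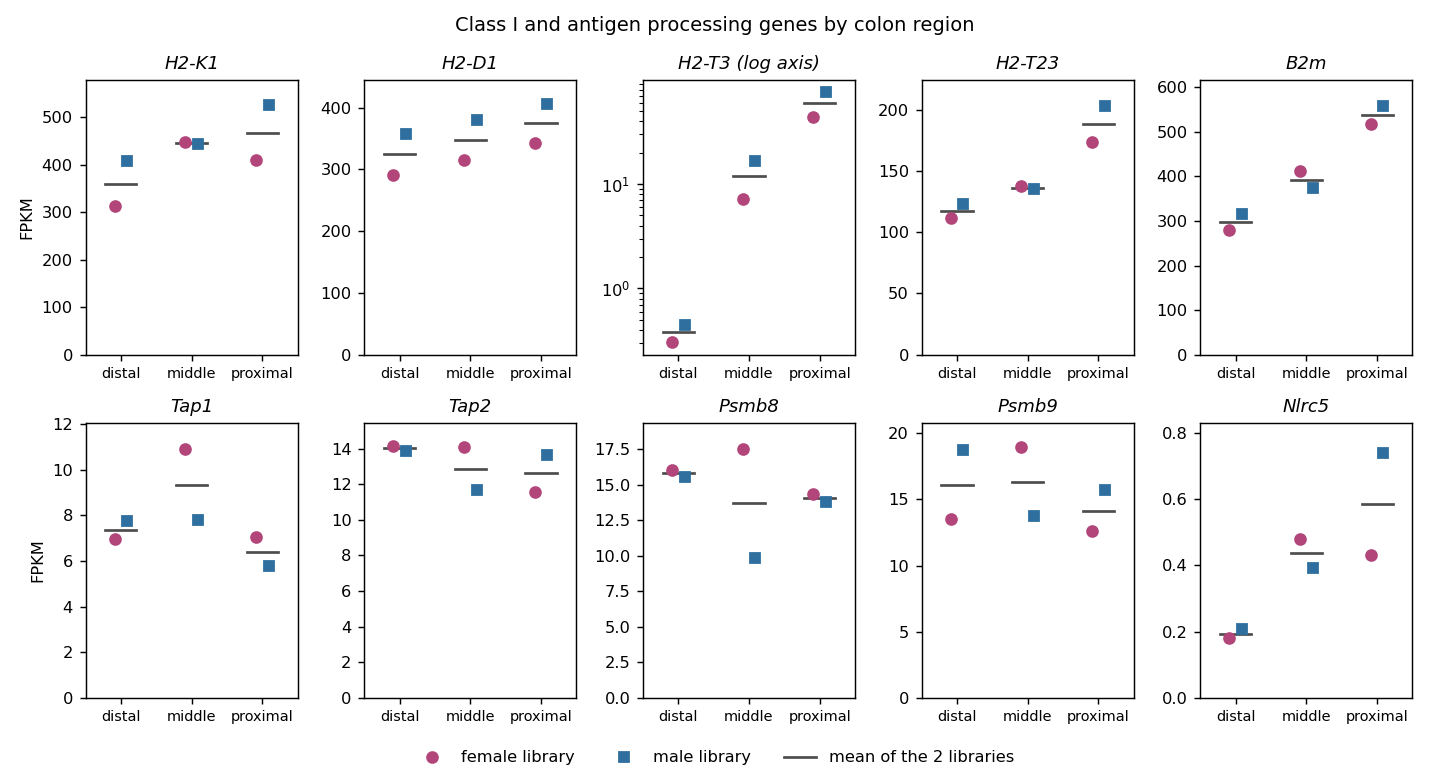
FPKM (vertical axes, linear from 0 except for H2-T3, which has a log axis) of the 10 genes in distal, middle and proximal colon; circles are female and squares male libraries, and bars the mean of the 2. H2-T3 lies at 0.306 and 0.450 FPKM in distal colon and at 43.7 and 75.7 FPKM in proximal colon, B2m and H2-T23 step down from right to left without overlap between the ends, and the transporter and immunoproteasome genes lie within 5.77 to 18.9 FPKM in all regions.

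Distal colon was first set against proximal colon, the 2 ends of the organ. The nonclassical heavy chains H2-T3 and H2-T23 and the light chain B2m fell, while the classical heavy chains, the transporter and the immunoproteasome subunits did not pass the test. limma was fitted to log2(FPKM + 1) with terms for region and sex over 11815 genes that reached 1 FPKM in at least 2 libraries, and p-values were adjusted over all of them by the Benjamini-Hochberg method. Nlrc5 did not reach this level and was not tested. Of the 9 tested members 0 were higher and 3 lower, 33.3%. Of all tested genes 14.1% passed the threshold of 0.05, 6.47% being higher and 7.64% lower. H2-T3 was under 1 FPKM in both distal libraries and passed the filter through the middle and proximal ones. The members were also named with earlier results of these data known, so the share called carries no test. The median difference of the 9 members was -0.21 on the log2 scale, and that of all tested genes 0.01. The distal and proximal libraries did not overlap for 6 of the 9 members (H2-K1, H2-T3, H2-T23 and B2m lower, Tap2 and Psmb8 higher), as for 30.8% of all tested genes upwards and 29.5% downwards.

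H2-T3 (chromosome 17, 36185572 to 36190287) had the steepest gradient of the 9. It stood at 0.306 and 0.450 FPKM in the female and male distal libraries, at 7.12 and 16.6 FPKM in middle colon and at 43.7 and 75.7 FPKM in proximal colon. The 3 regions did not overlap, and in each region the male library was higher. Between distal and proximal colon it fell by 5.41 log2(FPKM + 1) units (SE 0.24, 95% interval -6.00 to -4.82, adjusted p = 0.0011 by limma), by 5.10 in females and 5.73 in males, and ranked 12 among all decreases. The added 1 FPKM understates this change: on FPKM itself the distal mean was 0.00633 of the proximal mean. The distal values rest on few fragments, an estimated 6.4 and 7.5, against 824 and 1280 in the proximal libraries. Of the 50-base windows of its longest coding transcript, 1.2% also occurred in transcripts of another gene.

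H2-T23 (chromosome 17, 36029773 to 36032855) was at 111.6 and 122.6 FPKM in the female and male distal libraries, 137 and 135 FPKM in middle colon and 173 and 203 FPKM in proximal colon. All distal values lay below all middle values, and these below all proximal values. The fall between distal and proximal colon was 0.68 log2 units (SE 0.11, adjusted p = 0.017 by limma), with 0.63 in females and 0.72 in males. H2-T23 shared 28.8% of its 50-base windows with other genes, most with H2-T-ps, so reads of related copies may be part of its value.

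B2m, which encodes the light chain of all these molecules, followed the same order of regions. Its level was 280.2 and 315 FPKM in the female and male distal libraries, 412 and 373 FPKM in middle colon and 518 and 557 FPKM in proximal colon. It fell by 0.85 on the log2 scale between distal and proximal colon (SE 0.13, adjusted p = 0.015 by limma), by 0.88 in females and 0.82 in males, and none of its windows occurred in another gene. Without the male distal library the adjusted p was 0.119 for B2m and 0.158 for H2-T23, and without the female distal library 0.142 and 0.129, with differences of -0.95 and -0.69, and of -0.76 and -0.66. In these runs the number of genes called over the whole table was 340 and 770, against 1668 with all libraries. Scaling the libraries to the 12 epithelial markers, a choice made after the data were seen, left differences of -0.52 for B2m (adjusted p = 0.188 by limma) and -0.34 for H2-T23 (adjusted p = 0.345 by limma), and a median of 0.31 over all genes. Relative to that median the differences were -0.83 and -0.65, against -0.86 and -0.68 without this scaling. With Cdx2, which fell by 3.42 itself, left out of the 12, B2m passed (adjusted p = 0.045 by limma) and H2-T23 did not (adjusted p = 0.098 by limma). limma's prior degrees of freedom were infinite with all 12 markers and 16.3 without Cdx2, against 3.49 in the main fit. The p-values of these fits are therefore not comparable with each other or with the main ones.

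Lymphocyte transcripts moved in the same direction as B2m and H2-T23, which lymphocytes also express. Of 23 listed genes of T cells and intraepithelial lymphocytes 20 were in the files and 11 were tested. Of the 11, 0 were higher and 4 lower in distal colon (Gzma, Cd7, Gzmb and Cd8a), where 6.47% of all tested genes were higher and 7.64% lower. Their median difference was -1.34. Cd8a and Gzmb reached 1 FPKM only in the proximal libraries. Gzma, Cd3e, Cd3g and Itgae reached it in proximal and some middle libraries but in neither distal one. The filter thus admitted all of these genes through regions where they were higher, and the count and median partly reflect this. The summed FPKM of the 20 was 20.1 and 14.0 in the female and male distal libraries, 26.8 and 13.3 in the middle ones, and 47.5 and 108.5 in the proximal ones. None of the 20 was at 0 throughout. Ptprc, the pan-leukocyte marker CD45, was at 1.04 and 0.333 FPKM in distal and at 2.30 and 3.28 FPKM in proximal libraries. The part of these cells in the fall of B2m, H2-T23 and H2-T3 was not tested. In such bulk samples, fewer cells of a type and less RNA per cell cannot be told apart.

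The receptor gene Cd8a, whose product pairs with itself to bind the TL antigen, was at 0.208 and 0.132 FPKM in the female and male distal libraries, at 0.415 and 0.391 FPKM in middle colon and at 1.37 and 2.24 FPKM in proximal colon. It fell by 1.25 on the log2 scale between distal and proximal colon (SE 0.24, adjusted p = 0.028 by limma). Cd8a reached 1 FPKM only in the proximal libraries, so it passed the filter through the region where it was high. Klrd1, which encodes CD94, was at 1.06 FPKM and listed at 0 in the female and male distal libraries. In proximal colon Klrd1 was at 1.68 and 3.38 FPKM, and it did not pass the test between these regions. Klrc1, an NKG2 gene on the same list, was too low to be tested, at 0 to 0.622 FPKM over the 6 libraries. Its distal and proximal values overlapped, with means of 0.311 and 0.323 FPKM.

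The classical heavy chains varied less. H2-K1 was at 312 and 407 FPKM in the female and male distal libraries, 448 and 444 FPKM in middle colon and 409 and 525 FPKM in proximal colon. Its distal minus proximal difference was -0.38 log2 units (SE 0.15, 95% interval -0.75 to -0.01, adjusted p = 0.165 by limma), the 2 distal values lying just below the 2 proximal ones. H2-D1 was at 290.6 and 358 FPKM in distal, 316 and 380.1 FPKM in middle and 343 and 407 FPKM in proximal libraries, female first. In all 3 regions the male library was the higher one, and distal and proximal colon overlapped (difference -0.21, SE 0.11, 95% interval -0.49 to 0.07, limma's adjusted p = 0.278). This sign turned to 0.13 when libraries were scaled to the 12 epithelial markers. H2-K1 and H2-D1 shared 8.8% and 14.3% of their windows with other genes, so reads could pass between them.

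The transporter and the immunoproteasome were expressed at much lower levels than H2-K1, H2-D1, H2-T23 and B2m. H2-T3, by contrast, lay below these 4 genes in the distal libraries and the female middle library, and above them in the rest. Tap1 was at 6.96 and 7.77 FPKM in the female and male distal libraries, 10.9 and 7.78 FPKM in middle colon and 7.04 and 5.77 FPKM in proximal colon. Tap2 ranged from 11.6 to 14.2 FPKM over the 6 libraries. Their distal minus proximal differences were 0.18 (SE 0.17, 95% interval -0.24 to 0.60) and 0.15 (SE 0.14, 95% interval -0.21 to 0.50) on the log2 scale. Psmb8 and Psmb9, catalytic subunits that interferon gamma induces, ranged from 9.85 to 17.5 FPKM and from 12.6 to 18.9 FPKM. Their differences were 0.16 (95% interval -0.36 to 0.67) and 0.17 (95% interval -0.39 to 0.73). The limma adjusted p of these 4 genes ran from 0.541 to 0.681, and the intervals leave room for differences in both directions, so equal levels are not shown.

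Nlrc5, which drives class I transcription, was close to the lower limit of the values. It was at 0.179 and 0.207 FPKM in the female and male distal libraries, 0.480 and 0.392 FPKM in middle colon and 0.431 and 0.740 FPKM in proximal colon. The distal libraries lay below all others, on an estimated 13.1 and 12.0 fragments, against 28.4 and 43.7 in proximal colon. With no filter on low values the distal minus proximal difference was -0.40 on the log2(FPKM + 1) scale (SE 0.12, adjusted p = 0.135 by limma).

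**Figure D2:**
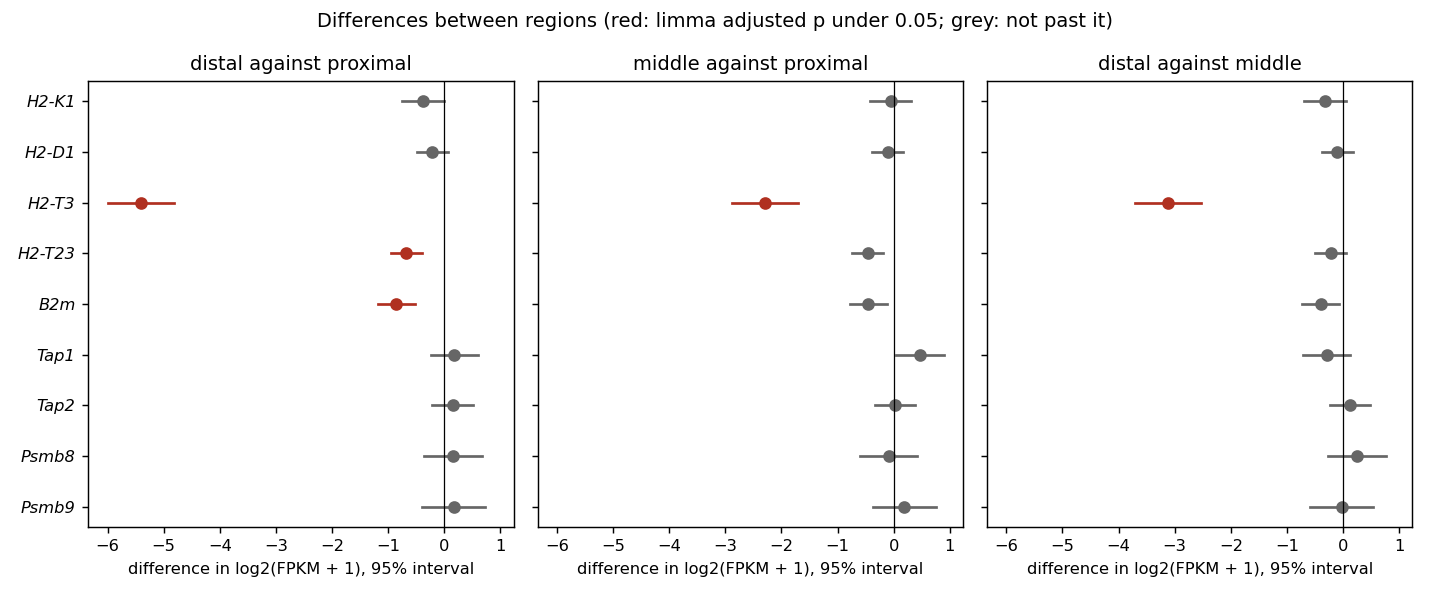
Differences in log2(FPKM + 1) between regions (horizontal axes, the same scale in each panel) for the 9 tested genes, with 95% intervals from limma; red marks an adjusted p under 0.05. H2-T3 lies far to the left in all 3 comparisons, at -5.41, -2.29 and -3.12, and B2m and H2-T23 are red between the ends of the colon, at -0.85 and -0.68.

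The second comparison, middle against proximal colon, again had H2-T3 at a lower level away from the proximal end. H2-T3 was lower by 2.29 on the log2 scale in middle colon (SE 0.24, 95% interval -2.88 to -1.70, adjusted p = 0.025 by limma), with -2.46 in females and -2.12 in males. It was the member called among the 9, 0 higher and 1 lower, where 2.45% of all tested genes passed, 1.19% being higher and 1.25% lower. Its adjusted p was 0.188 without the female middle library, 0.057 without the male middle library, 0.101 with no term for sex and 0.0895 with no filter on low values. B2m and H2-T23 did not pass, with differences of -0.45 (SE 0.13, adjusted p = 0.156 by limma) and -0.46 (SE 0.11, adjusted p = 0.102 by limma), though their middle and proximal libraries did not overlap, as for 21.6% of all tested genes upwards and 22.2% downwards. Tap1 had a difference of 0.47 (SE 0.17, adjusted p = 0.229 by limma). Lymphocyte transcripts had lower values in middle colon as well. Of the 11 tested 0 were higher and 1 lower, the granzyme gene Gzma (log2 difference -1.96, adjusted p = 0.030 by limma). An unadjusted p under 0.05 was found for 7 of the 11, where 18.3% of all tested genes had such a p, and the median was -1.22. Cd8a and Gzmb had passed the filter only through the proximal libraries. The summed FPKM of the list was 26.8 and 13.3 in the female and male middle libraries and 47.5 and 108.5 in the proximal ones, and its part in these differences was not tested.

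The third comparison, distal against middle colon, likewise had H2-T3 as the member called, 0 higher and 1 lower of 9. Of all tested genes 0.499% were called, 0.11% being higher and 0.389% lower. Both distal values of H2-T3 lay under the 1 FPKM of the filter, which it passed through the other regions. H2-T3 was lower by 3.12 on the log2 scale in distal colon (SE 0.24, 95% interval -3.71 to -2.53, adjusted p = 0.019 by limma), by 2.64 in females and 3.60 in males. Without the male distal library its adjusted p was 0.055, without the male middle library 0.103, with no term for sex 0.075 and with no filter 0.110. The differences of B2m and H2-K1 were -0.40 (limma's adjusted p = 0.314) and -0.32 (limma's adjusted p = 0.459). For both, the distal libraries lay below the middle ones without overlap, as for 19.1% of all tested genes downwards and 20.5% upwards. Of the 11 tested lymphocyte genes 0 were called by limma, and 1 had an unadjusted p under 0.05, against 12.7% of all tested genes. Their median difference was -0.35. The summed FPKM of the list was 20.1 and 14.0 in the female and male distal libraries and 26.8 and 13.3 in the middle ones. The part of these cells in the fall of H2-T3 was not tested. The 3 regional comparisons share libraries and are not independent of each other.

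The classical heavy chains exceeded the light chain in FPKM by a ratio that was highest in distal colon. The summed FPKM of H2-K1 and H2-D1 relative to B2m was 2.15 and 2.43 in the female and male distal libraries, 1.85 and 2.21 in the middle ones and 1.45 and 1.67 in the proximal ones. The means were 2.29 ± 0.20, 2.03 ± 0.25 and 1.56 ± 0.16 (SD, n = 2), and distal and proximal values did not overlap. For H2-T3 and H2-T23 together the ratio to B2m was 0.399 and 0.391 in distal, 0.350 and 0.407 in middle and 0.419 and 0.501 in proximal libraries, female first. Of the summed FPKM of the 4 heavy chains, H2-T3 made up 0.0428% and 0.0507% in the distal libraries, 0.784% and 1.70% in the middle ones and 4.51% and 6.25% in the proximal ones. No test was made of these ratios.

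Immunoproteasome subunits replace constitutive ones in the catalytic core, and their share among the 2 forms was computed for each pair. Psmb8 made up 14.4% and 15.3% of the summed FPKM of Psmb8 and its constitutive counterpart Psmb5 in the female and male distal libraries, 15.3% and 10.7% in the middle ones and 13.0% and 11.6% in the proximal ones. For Psmb9 with Psmb6 the means were 14.8 ± 3.36%, 14.4 ± 1.32% and 13.0 ± 1.71% in distal, middle and proximal colon (SD, n = 2). Psmb10, the remaining inducible catalytic subunit, had a larger share with Psmb7, 43.5 ± 4.56%, 43.7 ± 2.74% and 46.4 ± 1.57%. Distal and proximal values overlapped for Psmb9 and Psmb10 and not for Psmb8, and no test was made.

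**Figure D3:**
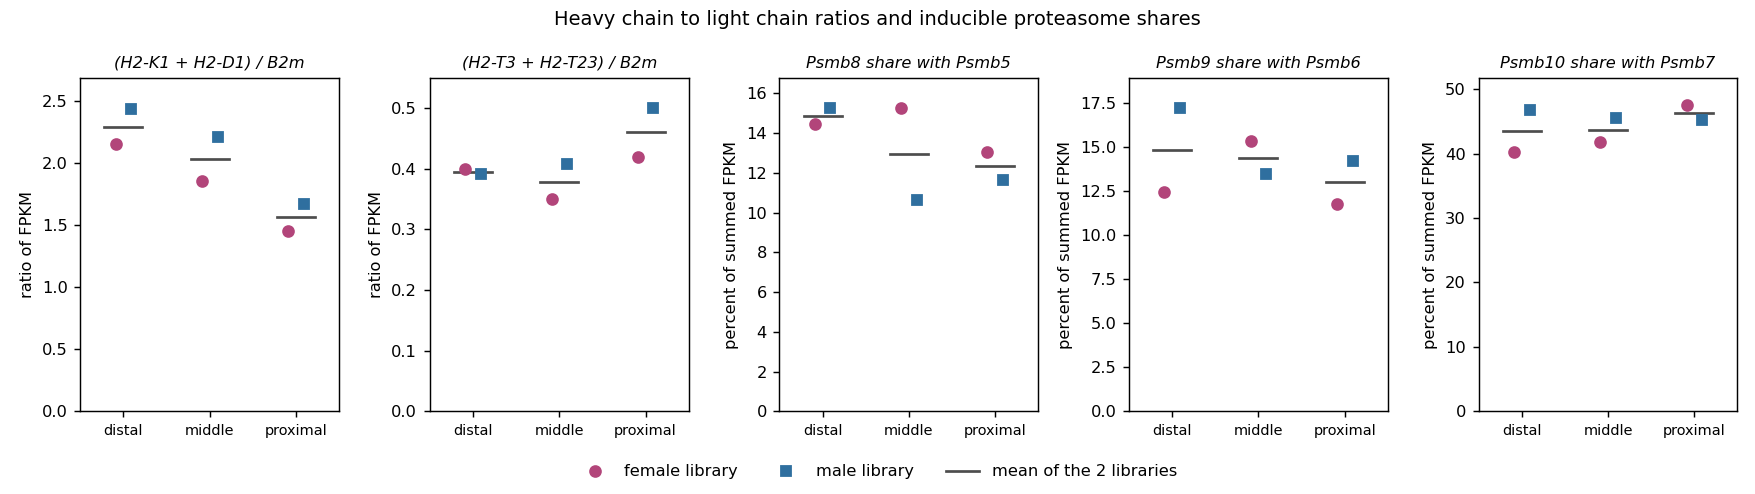
Ratios of FPKM (first 2 panels) and shares in percent of summed FPKM (last 3 panels) in distal, middle and proximal colon, axes from 0; circles are female and squares male libraries, and bars the mean of the 2. The ratio of H2-K1 and H2-D1 to B2m is 2.15 and 2.43 in distal colon and 1.45 and 1.67 in proximal colon. The Psmb8 share is 14.4% and 15.3% in distal colon and 13.0% and 11.6% in proximal colon, and the distal and proximal shares of Psmb9 and Psmb10 overlap.

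Among other class I heavy chains and class I-like molecules, some members of the H2-Q group fell and 1 stress ligand rose between distal and proximal colon. Of 34 listed genes 19 were tested, of which 1 was higher, 5 lower and 13 not past the threshold, where 6.47% of all tested genes were higher and 7.64% lower. Their median difference was -0.34, and that of all tested genes 0.01. H2-Q2 was at 22.9 and 21.1 FPKM in the female and male distal libraries, 32.0 and 38.0 FPKM in middle colon and 58.2 and 130.2 FPKM in proximal colon. It fell by 1.94 log2 units (SE 0.29, adjusted p = 0.014 by limma), with -1.31 in females and -2.57 in males. H2-Q10 fell by 1.05 (limma's adjusted p = 0.015), and Azgp1, a secreted class I-like protein, by 1.11 (limma's adjusted p = 0.013).

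H2-Q1, at 4.36 and 4.32 FPKM in distal and 9.70 and 23.4 FPKM in proximal libraries, fell by 1.60 and H2-Bl by 0.89; both were named after their values were seen. H2-Q1, H2-Q10 and H2-Q2 shared 22.9%, 8.0% and 8.7% of their windows with other genes, so their values are uncertain. Raet1e, a stress ligand of the NKG2D receptor, rose to 13.8 and 15.1 FPKM in the distal libraries, against 5.06 and 4.16 FPKM in proximal colon (log2 difference 1.46, SE 0.19, limma's adjusted p = 0.0096). Between middle and proximal colon and between distal and middle colon limma called 0 of the 19, with 7 and 4 at an unadjusted p under 0.05, where 18.3% and 12.7% of all tested genes had such a p.

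**Figure D4:**
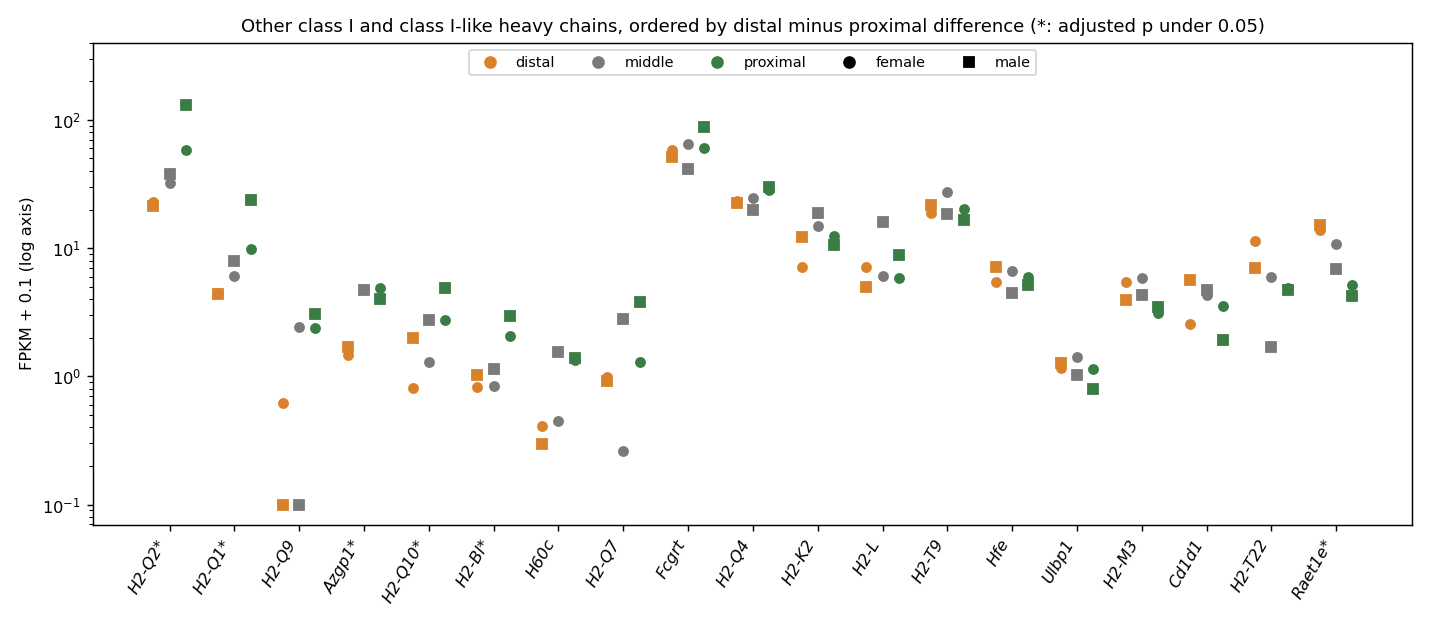
FPKM + 0.1 (vertical log axis) of the 19 other class I and class I-like heavy chains tested, in distal (orange), middle (grey) and proximal (green) colon; circles are female and squares male libraries, and asterisks mark an adjusted p under 0.05 between distal and proximal colon. Genes run from the largest decrease at the left, H2-Q2 at -1.94, to the largest increase at the right, Raet1e at 1.46.

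Peptide loading and proteolysis genes showed few changes between distal and proximal colon. Of 17 genes of peptide loading and trimming 1 was higher and 1 lower, with a median difference of -0.08. Thop1, a peptidase that destroys cytosolic peptides, rose by 0.96 (SE 0.17, adjusted p = 0.022 by limma), and Blmh, an aminopeptidase, fell by 0.72 (SE 0.13, adjusted p = 0.023 by limma). Among 6 genes of the inducible proteasome and its activators, 0 were higher and 1 lower: Psme2, a subunit of the interferon-inducible activator, was at 123 and 128 FPKM in distal and 169 and 170.2 FPKM in proximal libraries (log2 difference -0.43, SE 0.10, limma's adjusted p = 0.041). Of 14 constitutive proteasome subunits, Psma1 rose by 0.49 (limma's adjusted p = 0.041), and the other 13 did not pass. Shares of these lists called were near or below the 14.1% of all tested genes. Over these lists and the other class I genes, regulators, interferon gamma response and class II genes, 16 genes were called with all libraries, but 0 without the male distal library, 6 without the female distal library and 11 to 13 without 1 of the other 4. Of the 16, 7 were higher and 9 lower, against 13 higher and 8 lower when libraries were scaled to the 12 epithelial markers.

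Of 29 regulators of class I transcription and of interferon signalling, 2 were higher and 2 lower, a share near the 14.1% of all tested genes. Irf2, an interferon regulatory factor, was at 71.1 and 72.9 FPKM in the female and male distal libraries, 48.0 and 40.3 FPKM in middle colon and 37.4 and 35.2 FPKM in proximal colon, a rise of 0.97 log2 units (SE 0.11, adjusted p = 0.0067 by limma). Stat3 rose by 0.45 (limma's adjusted p = 0.032). Socs1 and Socs3, feedback inhibitors of cytokine signalling, fell by 1.56 (limma's adjusted p = 0.013) and 1.04 (limma's adjusted p = 0.010).

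Of 20 tested genes of the interferon gamma response, 1 was higher and 1 lower in distal colon, below the 14.1% of all tested genes, with a median difference of -0.15. The higher one was Gbp2, a guanylate-binding protein, at 4.65 and 4.96 FPKM in distal and 1.64 and 1.22 FPKM in proximal libraries (log2 difference 1.26, SE 0.27, limma's adjusted p = 0.036), and the lower one Socs1, which belongs to both lists. For MHC class II presentation 1 of 8 tested genes was higher, the lysosomal protease gene Ctss, by 0.64 (limma's adjusted p = 0.040), and 0 were lower, which again does not exceed that share. Cd14, a marker on the macrophage and dendritic cell list, moved with Ctss: it was at 37.8 and 37.9 FPKM in the female and male distal libraries and at 20.7 and 12.3 FPKM in proximal colon (log2 difference 1.19, adjusted p = 0.014 by limma). Of the 15 genes on that list 2 were tested, 10 were under 1 FPKM in all libraries and Fcgr1 was listed at 0 in all. The summed FPKM of that list was 43.6 and 42.1 in the distal libraries and 24.4 and 22.9 in the proximal ones. Most of each sum was Cd14, so it says little of the other genes. Cd68, the other gene tested, was at 1.97 and 1.46 FPKM in distal and 0.733 and 1.55 FPKM in proximal libraries. Among those not tested, Itgam was lower in distal libraries (0.315 and 0.312 against 1.10 and 0.976 FPKM) and Lyz2 higher (0.942 and 0.892 against 0.523 and 0.146 FPKM). The part of macrophages and dendritic cells in the rise of Ctss was not tested. In the other 2 regional comparisons limma called 0 genes of these 6 lists of loading, proteolysis, regulation, interferon gamma and class II. At an unadjusted p under 0.05, between middle and proximal colon, there were 4 of 8 class II genes and 4 of 20 interferon gamma genes, where 18.3% of all tested genes had such a p, and 0 to 4 genes in each of the other 4 lists. Between distal and middle colon there were 7 of 20 interferon gamma genes, 6 of 29 regulators and 2 of 8 class II genes, where 12.7% of all tested genes had such a p, and 0 to 1 genes in each of the other 3 lists.

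**Figure D5:**
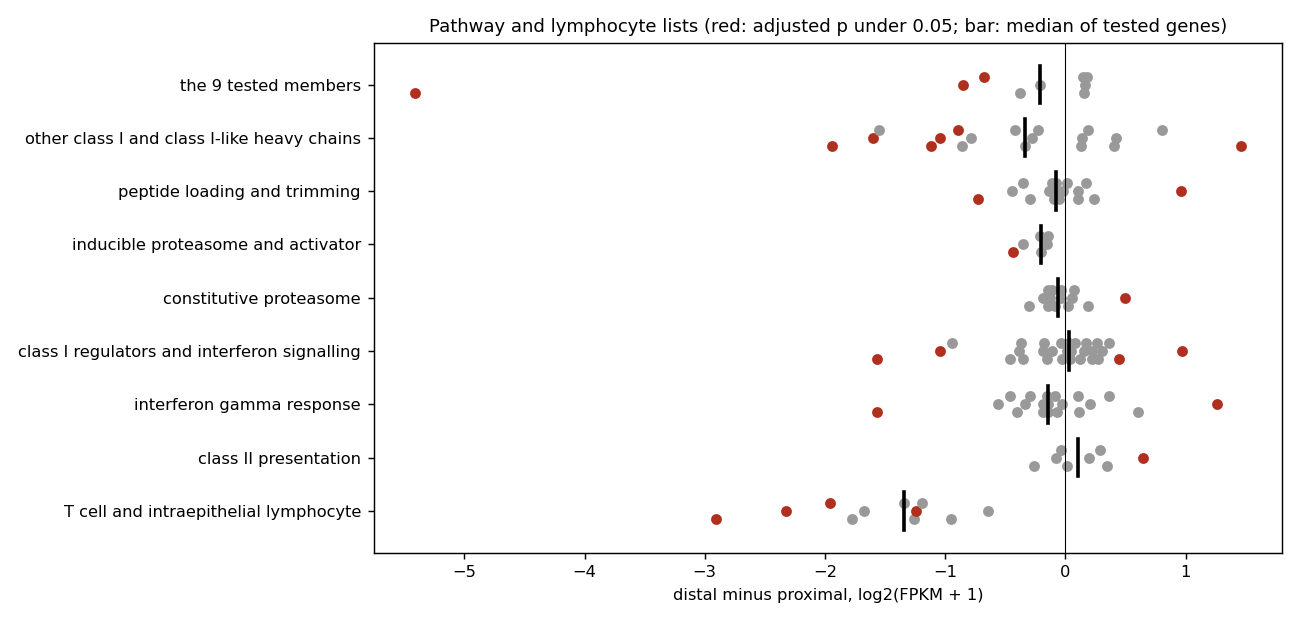
Distal minus proximal difference in log2(FPKM + 1) (horizontal axis) of each tested gene of the members and of 8 lists; red points have a limma adjusted p under 0.05 and black bars are medians. The members' median is -0.21 with H2-T3 at -5.41, and the lymphocyte list has the lowest median, -1.34. On that list Cd8a and Gzmb passed the filter only through the proximal libraries. Gzma, Cd3e, Cd3g and Itgae passed it without reaching 1 FPKM in either distal library.

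Among 8655 other genes with a mean of at least 5 FPKM, those whose log2(FPKM + 1) followed H2-T3 most closely over the 6 libraries were Sh3bgrl2 (Pearson r = 0.999), Hsd17b13, Lpl, Fgl2 and Chn2 (each r = 0.997 or 0.998). The r does not measure the size of a change, and Sh3bgrl2 changed far less than H2-T3. It stood at 36.5 and 36.9 FPKM in the female and male distal libraries and at 61.3 and 64.6 FPKM in proximal colon. Hsd17b13 stood at 0.982 and 1.23 FPKM in the female and male distal libraries, 7.02 and 11.9 FPKM in middle colon and 21.5 and 28.3 FPKM in proximal colon. For B2m they were Clec2d (r = 0.995), Bche (0.994), Pkig (0.988), Abhd4 (0.986) and Aamdc (0.986). Clec2d, which encodes a C-type lectin-like ligand of natural killer cell receptors, was at 55.8 and 59.7 FPKM in distal and 88.7 and 99.3 FPKM in proximal libraries. These values describe 6 libraries that share 3 regions, and they carry no test.

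Between the sexes limma called 0 of the 9 tested members, with 2 at an unadjusted p under 0.05, where 0.0423% of all tested genes were called (0.00846% higher and 0.0339% lower in females) and 10.6% had such a p. H2-T3 was lower in the female library in each of the 3 regions (female minus male -0.68 on the log2 scale, SE 0.19, limma's adjusted p = 0.415). Libraries were also scaled to the 12 epithelial markers, a choice made after the data were seen. limma's adjusted p of H2-T3 was then 0.023, and 0.101 with Cdx2 left out of the markers. Both scaled fits called more genes between the sexes than the main fit. Their prior degrees of freedom were infinite and 16.3, against 3.49, so these p-values are not comparable with the main one. H2-D1 was also lower in females in 3 of 3 regions (-0.27, SE 0.09, limma's adjusted p = 0.447). Some markers of other cells had lower values in females in 3 of 3 regions too. The difference was -1.10 for the lymphocyte gene Gzma (limma's adjusted p = 0.341) and -1.24 for the haemoglobin gene Hba-a1 (limma's adjusted p = 0.418). The epithelial gene Cdx2 was likewise lower, at -0.78 (limma's adjusted p = 0.415). Other markers were not lower: the median of the 11 tested lymphocyte genes was -0.03. Ptprc was at 0.28 (limma's adjusted p = 0.693) and Cd14 at 0.41 (limma's adjusted p = 0.451), each higher in females in 2 of 3 regions. The summed FPKM of the lymphocyte list was lower in the female library in proximal colon and higher in the other 2 regions. That of the erythroid list was 35.3, 95.6 and 38.8 in the female and 131, 117 and 137 in the male distal, middle and proximal libraries. The part of these cells in the sex differences was not tested.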

How the data were processed

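Each library has 1 table of FPKM per gene, used as the authors deposited it. The submitters' processing notes name mm10, Cuffdiff 2.2.1, TopHat2 2.1.1, SAMtools 0.1.18 and Bowtie2 2.2.8, and per the labels' protocols the libraries are strand-specific and polyadenylated. Tool settings, annotation and use of strand were not given in the sources used here. Because FPKM are not counts, no count model was applied. Groups and sexes follow the labels.

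Members and gene lists were chosen with earlier results of these data known. limma 3.58.1 (R 4.3.3) was fitted to log2(FPKM + 1) with region and sex as terms, over the 11815 of 24346 entries reaching 1 FPKM in 2 or more libraries, with 2 residual and 3.49 prior degrees of freedom, and was tested on simulated data. The sex term matches libraries of a sex across regions. Genes named from a list were up to 4 called ones by smallest adjusted p, or else 2 by smallest p. Alternatives changed the pseudocount (0.1), the filter (none, or a mean of 5 FPKM), the normalization (quantile, median-ratio), the variance trend or the terms, or left out 1 library, its lone partner being assumed to vary like the others. Scaling to the epithelial markers, with and without Cdx2, was added after the data were seen. The promoter elements were also chosen after other patterns had been tried, and the smallest opposite change between sexes (0.1 log2 units) was set with the values known.

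Depth was estimated from values under 0.2 FPKM of genes with a single annotated transcript of over 1500 bases, for an assumed fragment of 200 bases. Fragment numbers per gene use the longest coding transcript and are approximate. Coordinates and transcripts come from GENCODE M21, which held 23310 of the 24346 symbols. Python 3.11.15 and matplotlib 3.10.9 drew the figures.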

Additional observations from a re-analysis of the deposited data

Results flagged for a closer look

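For 4 members the female and the male libraries changed in opposite directions between regions. With 1 library per sex and region these differences were not tested. Between middle and proximal colon H2-K1 changed by 0.13 log2 units in females and -0.24 in males, a gap of 0.372, and Tap2 by 0.26 and -0.21, a gap of 0.471. For Psmb8 the same comparison gave 0.27 in females and -0.45 in males, a gap of 0.722, and for Psmb9 0.55 and -0.18, a gap of 0.733. Between distal and middle colon Psmb8 changed by -0.12 in females and 0.61 in males, a gap of -0.729, and Psmb9 by -0.46 and 0.42, a gap of -0.88. Psmb8 stood at 17.5 FPKM in the female and 9.85 FPKM in the male middle library, and Psmb9 at 18.9 and 13.7 FPKM, so both immunoproteasome subunits were higher in the female library there.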

How the results depend on the processing

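Between distal and proximal colon H2-T3 was called in every alternative tried. With 1 library left out, the genes called numbered 340 to 1583 between distal and proximal colon, 0 to 806 between middle and proximal, 0 to 406 between distal and middle, and 2 to 25 between the sexes. The members called then numbered 1 to 3, 0 to 1 and 0 to 1 in the regional comparisons, and the pathway lists had 0 to 13. Directions turned in some of these runs for members that were not called. Between distal and proximal colon the ranges were -0.062 to 0.42 for Tap1, -0.032 to 0.33 for Tap2, -0.027 to 0.34 for Psmb8 and -0.090 to 0.42 for Psmb9. Between middle and proximal colon they were -0.25 to 0.14 for H2-K1, -0.15 to 0.20 for Tap2, -0.45 to 0.27 for Psmb8 and -0.22 to 0.59 for Psmb9. Between distal and middle colon they were -0.052 to 0.30 for Tap2, -0.12 to 0.61 for Psmb8 and -0.42 to 0.38 for Psmb9. With no filter 4 genes were called between middle and proximal colon, 2 between distal and middle, 0 members in either, and 9 pathway genes between distal and proximal. With a mean of 5 FPKM the pathway genes numbered 10 and the genes called between the sexes 3. With no variance trend 187 and 29 genes were called between middle and proximal and between distal and middle colon. Without the sex term, hence with no replicate block or pairing of libraries by sex, these were 24 and 17, with 0 members in either, and 8 pathway genes between the ends. Quantile normalization put the distal ratio of H2-T3 and H2-T23 to B2m at 0.405. Scaling to the 12 epithelial markers was chosen after seeing the data. It called 2604 genes between distal and proximal colon (1925 higher, 679 lower, against 765 and 903), 968 between middle and proximal, 633 between distal and middle and 268 between the sexes, with 1 member between the ends and 1 between the sexes. H2-D1 then turned to 0.13, 0.010 and 0.12 in the 3 regional comparisons, H2-K1 to 0.065 and Psmb8 to 0.026 between middle and proximal, and Psmb9 to 0.19 between distal and middle. Cdx2, 1 of the 12 markers, was at 7.25 and 17.3 FPKM in the distal and 125 and 136 FPKM in the proximal libraries. Without it, 1667 genes were called between the ends, 755 between middle and proximal, 368 between distal and middle and 77 between the sexes, and no member turned. limma's prior degrees of freedom were 16.3 in this fit and infinite with all 12 markers, against 3.49, so p-values are not comparable across these fits. The cause of the other changes was not tested. Few fragments limit H2-T3 in distal colon and Nlrc5 throughout.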
